A study of Mus musculus with 10 samples.

Results

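The genes described here are 36 members of the machinery that folds, checks and degrades proteins in the endoplasmic reticulum (ER) of mouse cells. They were taken from a list of gene symbols, and all 36 were found among the 28987 gene IDs listed for each library. No measured value entered the rule, but the list was chosen with earlier results of these data known. All 36 passed the filter of at least 1 TPM in at least 2 libraries, which left 14166 genes for testing. By role they are 11 chaperones and co-chaperones, 7 enzymes and partners of disulfide bond formation, 9 degradation factors, 4 genes of stress sensing (3 sensors and the transcription factor gene Xbp1) and 5 genes of protein entry into the ER and its first processing steps.

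Secreted and membrane proteins enter the ER through the Sec61 channel, are held by chaperones such as BiP (the product of Hspa5) and calreticulin, and are crosslinked by protein disulfide isomerases. Chains that fail to fold are passed back to the cytosol and destroyed by the proteasome, a route called ER-associated degradation. When unfolded chains build up, the sensors IRE1 (Ern1), PERK (Eif2ak3) and ATF6 start the unfolded protein response, which raises transcription of many of these chaperone and degradation genes through ATF6 and spliced XBP1. White adipocytes depend on this machinery because they secrete large amounts of adiponectin and other proteins.

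RNA was sequenced from 10 libraries in 5 groups of 2, and the labels name primary white adipocytes as the source. Inguinal fat was digested, from male C57BL/6 mice aged 6 to 8 weeks, and its cells were grown to confluence. The groups were bacterial lipopolysaccharide (LPS) at 100 ng/ml, norepinephrine at 1 mM, recombinant BAFF at 500 ng/ml, recombinant APRIL at 500 ng/ml and saline, each for 24 h. LPS activates Toll-like receptor signalling, norepinephrine is the transmitter that activates beta-adrenergic receptors on fat cells, and BAFF and APRIL are ligands of the TNF family. The treatment text of the labels speaks of adipose tissue where the source speaks of adipocytes, and a differentiation step is not described. Nothing in the labels ties a group's 2 libraries to different mice or dishes. The p-values therefore reflect only how far these samples scatter, which may be technical.

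Values are in TPM, the abundance of a gene's transcripts relative to all transcripts of its library after correction for length. The 10 libraries sum to between 953553 and 964726 TPM over the listed genes, with 12845 to 13115 genes at 1 TPM or more, and their sequencing depth is unknown. The libraries of 1 group, labelled APRIL, differed from all others. Their correlation with other groups across genes was 0.850 to 0.886, where all pairs among the other 8 libraries gave 0.948 to 0.991. The sum of Y-linked genes in this group was 0.489 and 0.775 TPM, against 93.8 to 123 TPM in the other 8, although all 10 carry the label male. Because these libraries enter the shared error estimate, the counts of the other comparisons below are given with and without them. Of 8 adipocyte markers (Adipoq, Plin1, Fabp4, Cfd, Lep, Pparg, Cidec and Slc2a4), 7 reached the level for testing. Lep, with at most 0.806 TPM in any library, did not. Their summed level, most of it Fabp4 in every group, ranged from 4731 to 5347 TPM with LPS and from 13269 to 13828 TPM with norepinephrine. It ranged from 6854 to 8504 TPM with BAFF, from 2152 to 4773 TPM for APRIL and from 7139 to 8259 TPM with saline.

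Together the 36 genes took 0.888 and 1.00% of the listed TPM in the LPS libraries and 0.676 and 0.735% in the norepinephrine libraries. They took 1.13 and 1.02% in the BAFF libraries, 0.737 and 1.23% in the libraries labelled APRIL and 1.06 and 0.995% in the saline libraries. The 2 norepinephrine libraries thus held the lowest shares of all 10, and the library labelled APRIL replicate 2 the highest. Chaperone transcripts summed to 3268 and 3736 TPM with norepinephrine, against 5936 and 5608 TPM with saline, and translocation transcripts to 352 and 388 TPM, against 565 and 556 TPM. The 4 most abundant members in saline were Hsp90b1, P4hb, Calr and Hspa5, with means of 2286, 1297, 1269 and 1036 TPM. The sensor Ern1 had the lowest saline mean of the 36, 6.79 TPM.

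**Figure D1:**
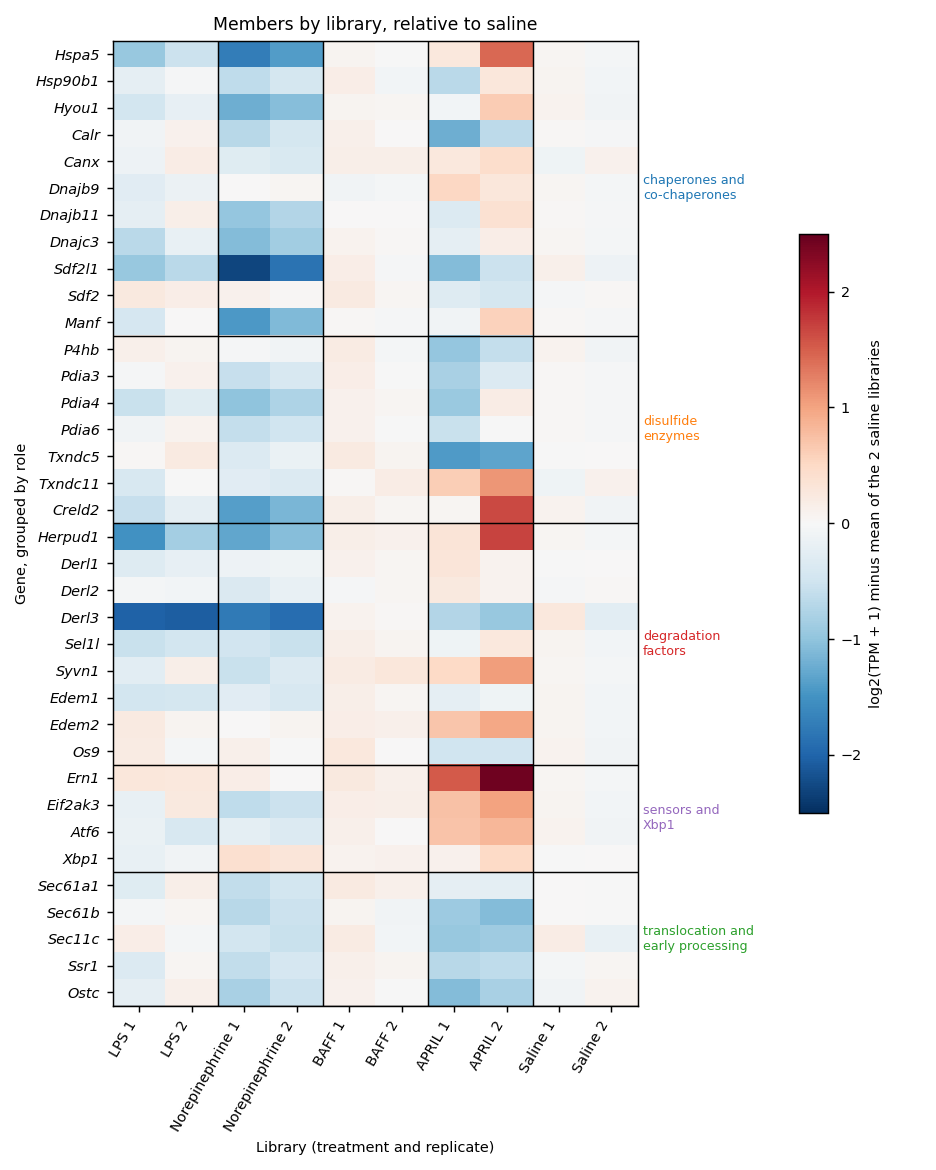
Level of each of the 36 genes (rows, grouped by role) in each of the 10 libraries (columns), as log2(TPM + 1) minus the mean of the 2 saline libraries, with blue below and red above saline. The norepinephrine columns are blue for most chaperones, disulfide enzymes and translocation genes, Derl3 is dark blue with both LPS and norepinephrine, and the 2 columns labelled APRIL differ from each other in Hspa5, Creld2 and Herpud1.

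With norepinephrine most of these genes were lower than with saline, chaperones by the most at the median (-0.84 on the log2 scale) and the sensing genes by the least (-0.11). Both norepinephrine libraries lay below both saline libraries for 29 of the 36 genes (80.6%), where 22.9% of all 14166 tested genes did so. They lay above both saline libraries for 1 gene, Xbp1, where 34% of all genes did so. Among the 8 libraries not labelled APRIL, the norepinephrine pair held the lowest values for 22 of the 36 genes (61.1%), against 9.8% of all genes. Differences are given as log2 fold changes, the difference between group means of log2(TPM + 1), which understates changes of genes with low TPM. The median over the 36 genes was -0.52, and over all tested genes it was 0.04.

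In the test across all genes (limma, Benjamini-Hochberg adjusted p below 0.05, all 10 libraries in one fit), 2 of the 36 genes fell with norepinephrine, Sdf2l1 and Derl3, and none rose. Over all genes 0.699% passed, 0.0847% falling and 0.614% rising. Before adjustment, 24 of the 36 genes had a p below 0.05 with a lower level and 1 with a higher level. In the same test without the libraries labelled APRIL, 15 of the 36 genes fell and 1, Xbp1, rose, where 6.22% of the 13730 genes then tested passed, 1.18% falling and 5.04% rising. By role, those that fell were 7 of 11 chaperones and co-chaperones, 4 of 7 disulfide genes, 3 of 9 degradation factors, 0 of 4 sensing genes and 1 of 5 translocation genes. The fold changes are the same in both tests, and only the error estimate differs. In bulk RNA, fewer cells of one type and less RNA per cell cannot be told apart.

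Among the chaperones, Sdf2l1 (chromosome 16, 17130138 to 17132383 of GRCm38, minus strand), an ER-resident partner of BiP co-chaperones, had 13.9 and 19.3 TPM with norepinephrine, against 79.0 and 66.0 TPM with saline. Both norepinephrine libraries were under every other library of the series. Its log2 fold change was -2.07 ± 0.23 (SE, 2 libraries each), with an adjusted p of 0.0237 in limma and of 0.00532 without the libraries labelled APRIL. Hspa5, which encodes BiP, the main Hsp70 chaperone of the ER and the brake on all 3 sensors, had 314 and 392 TPM with norepinephrine, against 1070.2 and 1002 TPM with saline. The groups were far apart, and the log2 fold change was -1.56 ± 0.33, yet the adjusted p was 0.0782 with all 10 libraries and 0.00711 without those labelled APRIL. Manf, a secreted factor that binds BiP and is induced by ER stress, had 119 and 149 TPM with norepinephrine, against 329 and 315 TPM with saline. Its log2 fold change was -1.27 ± 0.23, with an adjusted p of 0.0624 with all libraries and 0.0133 without those labelled APRIL. An exon of Manf overlaps Dcaf1 on the opposite strand, and the handling of strand is not stated. Calr (calreticulin), a lectin chaperone that holds glycoproteins, had 786 and 929.7 TPM with norepinephrine, against 1297 and 1242 TPM with saline, with adjusted p of 0.189 and 0.0409 in the fits with and without the libraries labelled APRIL.

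Another 3 co-factors of BiP also lay below saline without overlap. Hyou1, which exchanges nucleotide on BiP, and the J-domain partners Dnajb11 and Dnajc3 had log2 fold changes of -1.14, -0.84 and -0.98, and each passed only without the libraries labelled APRIL (adjusted p = 0.00697, 0.0245 and 0.0244). Hsp90b1, the ER form of Hsp90, had 1469 and 1674 TPM with norepinephrine, against 2389 and 2183 TPM with saline. The libraries did not overlap, and the adjusted p was 0.355 with and 0.0587 without the libraries labelled APRIL. Canx (calnexin), the membrane-bound lectin chaperone, had a log2 fold change of -0.34 and passed in neither fit. Dnajb9 and Sdf2 were the chaperone genes whose norepinephrine and saline libraries overlapped: Dnajb9, a J-domain partner that restrains IRE1, had 51.7 and 53.2 TPM with norepinephrine, against 52.9 and 49.5 TPM with saline. Sdf2, the paralog of Sdf2l1, had 84.8 and 80.0 TPM with norepinephrine, against 77.0 and 80.3 TPM with saline. The paralogs Sdf2l1 and Sdf2 thus stood at opposite ends of the chaperone group in this comparison.

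Among the disulfide genes 4 of 7 passed without the libraries labelled APRIL and P4hb lay near saline. Pdia3, the isomerase that works with calnexin and calreticulin, had 489 and 554 TPM with norepinephrine, against 738 and 716 TPM with saline, and its adjusted p was 0.203 with and 0.0479 without the libraries labelled APRIL. The isomerases Pdia4 and Pdia6 and Creld2, an ER-stress-induced disulfide isomerase, had log2 fold changes of -0.89, -0.54 and -1.26, and each passed only without the libraries labelled APRIL, with adjusted p of 0.0136, 0.0269 and 0.00974. P4hb, the most abundant isomerase and also the beta subunit of the collagen prolyl hydroxylase, had 1265 and 1213 TPM with norepinephrine, against 1370.2 and 1224 TPM with saline. Those libraries overlapped, and the log2 fold change was -0.06 ± 0.15 (adjusted p = 0.871). Txndc5 and Txndc11, thioredoxin-domain proteins of the ER, had log2 fold changes of -0.26 and -0.31 and passed in neither fit.

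Derl3 (chromosome 10, 75893413 to 75895941 of GRCm38, plus strand), the tissue-restricted member of the derlin family of degradation factors, had 7.40 and 6.55 TPM with norepinephrine, against 33.0 and 22.7 TPM with saline. The groups were far apart although the saline libraries themselves differed, and the log2 fold change was -1.84 ± 0.17 (limma, adjusted p = 0.0204 with and 0.00577 without the libraries labelled APRIL). Its paralogs were closer to saline: Derl1 had 64.9 and 66.4 TPM with norepinephrine, against 70.5 and 72.4 TPM with saline, and Derl2 had 35.8 and 40.4 TPM, against 45.2 and 47.4 TPM. Neither paralog passed in either fit. Herpud1, a membrane protein that organises the degradation complex and is strongly induced by ER stress, had 43.4 and 51.2 TPM with norepinephrine, against 111 and 105 TPM with saline, with adjusted p of 0.201 with and 0.0294 without the libraries labelled APRIL. Sel1l, the scaffold of the ubiquitin ligase that Syvn1 encodes, had a log2 fold change of -0.52 and passed only without those libraries (adjusted p = 0.0253). Syvn1 (-0.45) and the mannosidase-like factor Edem1 (-0.34) passed in neither fit. The lectin-type factors Edem2 and Os9, which pick out misfolded glycoproteins, overlapped saline: Edem2 had 20.6 and 21.3 TPM with norepinephrine, against 21.6 and 19.3 TPM with saline, and Os9 had 64.3 and 58.3 TPM, against 62.5 and 54.8 TPM.

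Of the sensing genes, Xbp1, whose spliced messenger encodes a main transcription factor of the unfolded protein response, had 194 and 182 TPM with norepinephrine, against 145 and 149 TPM with saline. It was the only member with both norepinephrine libraries above both saline libraries, with a log2 fold change of 0.35 ± 0.13 and adjusted p of 0.236 with and 0.0453 without the libraries labelled APRIL. The TPM of Xbp1 adds the spliced and unspliced forms, which cannot be told apart in these values. Eif2ak3 (PERK, which slows translation under stress) had 6.72 and 7.25 TPM with norepinephrine, against 11.5 and 10.4 TPM with saline. Atf6 had 11.97 and 11.1 TPM with norepinephrine, against 15.3 and 13.6 TPM with saline. Both lay below saline without overlap but passed in neither fit. Ern1 had 7.72 and 6.86 TPM with norepinephrine, against 7.08 and 6.50 TPM with saline, and these libraries overlapped.

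All 5 translocation and early processing genes lay below saline in both norepinephrine libraries, by -0.50 to -0.67 on the log2 scale. Sec61b, a small subunit of the channel, had 140.3 and 156 TPM with norepinephrine, against 230.1 and 225 TPM with saline (adjusted p = 0.0576 with and 0.0181 without the libraries labelled APRIL). Sec61a1, the pore subunit, had 58.0 and 64.0 TPM with norepinephrine, against 89.5 and 88.0 TPM with saline. Ostc, a subunit of the enzyme that adds N-glycans, had 72.9 and 87.6 TPM, against 120.4 and 136 TPM. Sec11c, a catalytic subunit of signal peptidase, had 55.9 and 52.3 TPM, against 88.2 and 67.1 TPM. Ssr1, a subunit of the translocon-associated TRAP complex, had 24.5 and 28.3 TPM, against 36.6 and 39.6 TPM. Sec61a1, Ostc, Sec11c and Ssr1 did not pass in either fit.

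The 2 norepinephrine calls made with all 10 libraries were sensitive to single libraries, as were those over all genes. Leaving out 1 norepinephrine or 1 saline library at a time leaves 1 library in that group, and hardly any tested gene then passed. Sdf2l1 no longer passed, and Derl3 did so only without saline replicate 2. The log2 fold changes in those 4 fits were -2.30 to -1.85 for Sdf2l1 and -2.10 to -1.57 for Derl3. Without the libraries labelled APRIL the count of 16 also depended on single libraries, since leaving out norepinephrine replicate 1, norepinephrine replicate 2, saline replicate 1 or saline replicate 2 gave 4, 7, 1 and 3 members. The sum of the 8 adipocyte markers was 13269 to 13828 TPM with norepinephrine, against 7139 to 8259 TPM with saline. The 6 smooth muscle and pericyte markers summed to 881 to 1022 TPM with norepinephrine, against 1471 to 1555 TPM with saline, and no marker of either list was at 0 in both libraries of a group. Most of the adipocyte sum was Fabp4, with 11391 and 11802 TPM with norepinephrine, against 5452 and 6287 TPM with saline. Single markers went both ways: Cidec had 368 and 438 TPM with norepinephrine, against 156 and 215 TPM with saline, while Cfd had 435 and 499 TPM, against 496 and 585 TPM, and Lep had 0.0110 and 0.0358 TPM, against 0.457 and 0.806 TPM. None of the 7 adipocyte or 6 smooth muscle markers tested passed. Their part in the lower ER transcripts was not tested.

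**Figure D2:**
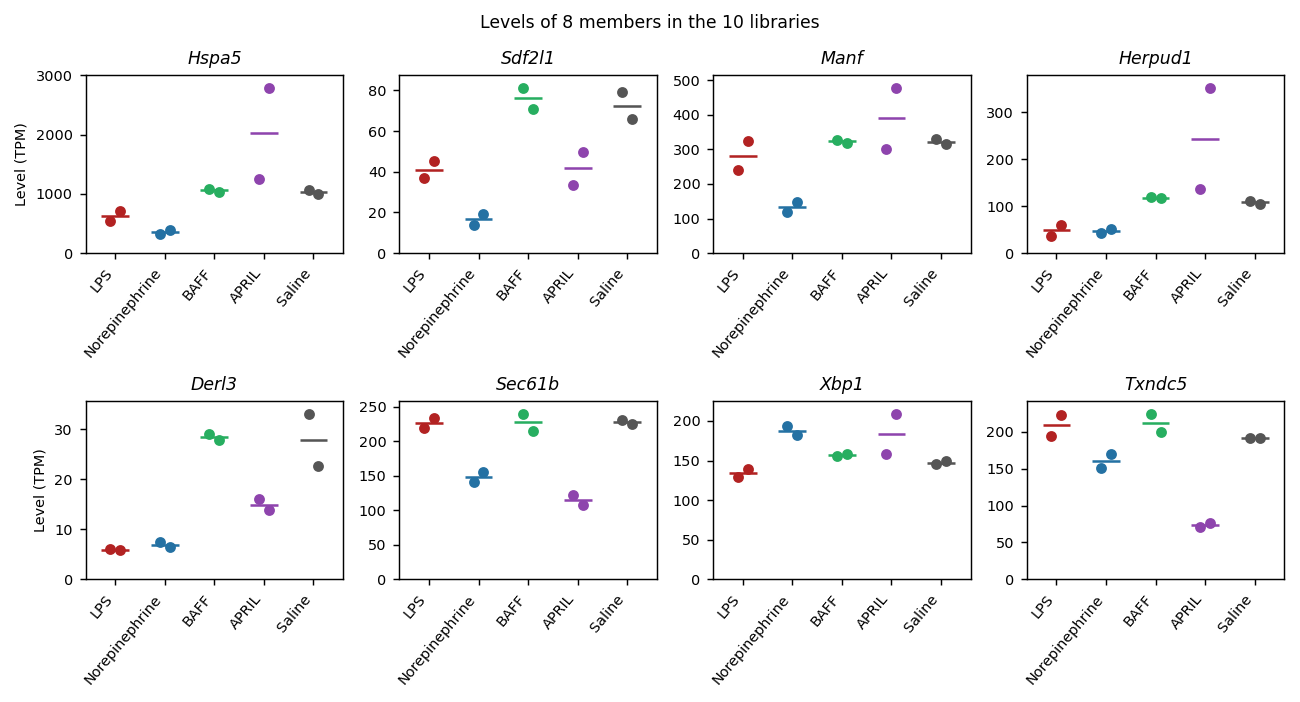
TPM of 8 of the 36 genes in each library (points) with group means (horizontal lines), for LPS, norepinephrine, BAFF, APRIL and saline from left to right, each vertical axis starting at 0. Hspa5, Sdf2l1, Manf and Sec61b are lowest or near lowest with norepinephrine, Derl3 is low with both LPS and norepinephrine, and the 2 libraries labelled APRIL are wide apart in Hspa5, Manf and Herpud1.

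With LPS fewer members were lower than with saline, and Derl3 stood at its lowest level of the series. Both LPS libraries lay below both saline libraries for 15 of the 36 genes (41.7%), where 25.5% of all tested genes did, and above for 3, where 24.2% did. The median log2 fold change was -0.10, against -0.01 over all genes, and it was -0.02 without LPS replicate 1 and -0.23 without LPS replicate 2. In limma with all 10 libraries, 1 of the 36 genes fell, Derl3, and none rose, where 3.8% of all genes passed, 0.932% falling and 2.87% rising. Without the libraries labelled APRIL 5 of the 36 fell (Hspa5, Herpud1, Derl3, Sel1l and Edem1) and none rose, where 6.89% of the genes then tested passed, 2.34% falling and 4.55% rising. Of those 5, 4 are degradation factors and 1 is a chaperone.

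Derl3 had 6.02 and 5.81 TPM with LPS, against 33.0 and 22.7 TPM with saline. The 2 LPS values were the lowest of the 10 libraries, and the log2 fold change was -2.04 ± 0.17 (limma, adjusted p = 0.00131 with and 0.00244 without the libraries labelled APRIL). It passed under each of the 18 alternatives tried, the 4 fits that left out 1 LPS or saline library included. Plasma and B cell markers, counted because Derl3 and Sdf2l1 are abundant in secretory cells, summed over 10 genes to 0.569 to 1.21 TPM with LPS, against 2.21 to 2.32 TPM with saline. Ms4a1, Cd79b, Igkc, Mzb1, Pou2af1 and Tnfrsf17 were listed at 0 in both LPS libraries, and Ms4a1, Igkc and Mzb1 in both saline libraries. Ighm, the only one of the 10 that reached the level for testing, made up most of the sum and did not pass. With norepinephrine, where Derl3 was also low, the sum was 1.44 to 2.40 TPM and overlapped saline. Herpud1 had 36.9 and 59.4 TPM with LPS, against 111 and 105 TPM with saline, and its log2 fold change was -1.19 ± 0.40 (adjusted p = 0.185 with and 0.0245 without the libraries labelled APRIL). Hspa5 had 539 and 714 TPM with LPS, against 1070.2 and 1002 TPM with saline, with adjusted p of 0.330 and 0.0463 in the same fits. Sel1l and Edem1 had log2 fold changes of -0.51 and -0.45, with adjusted p of 0.0928 and 0.0587 with all libraries and 0.0235 and 0.0350 without those labelled APRIL. Leaving out saline replicate 1 or saline replicate 2 as well gave 1 member past the threshold, and leaving out LPS replicate 1 gave 2.

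No other member passed with LPS in either fit. Of all 36 members 15 lay below saline without overlap and 3 above. Among the 15 were Pdia4, Dnajc3, Creld2, Hyou1, Derl1 and Dnajb9, with log2 fold changes of -0.43, -0.43, -0.40, -0.33, -0.26 and -0.22. Sdf2l1 had 36.8 and 45.2 TPM with LPS, against 79.0 and 66.0 TPM with saline, a gap without overlap that did not pass (log2 fold change -0.81 ± 0.23, adjusted p = 0.108 with and 0.0529 without the libraries labelled APRIL). The isomerases P4hb and Pdia3 did not separate: P4hb had 1409 and 1364 TPM with LPS, against 1370.2 and 1224 TPM with saline, and Pdia3 had 715 and 782 TPM, against 738 and 716 TPM. Pdia4 had 175 and 208 TPM with LPS, against 264 and 251 TPM with saline. Hsp90b1 had 1949.9 and 2242 TPM with LPS, against 2389 and 2183 TPM with saline. None of the 5 translocation genes had LPS libraries clear of saline on either side: Sec61b had 219.5 and 234 TPM, against 230.1 and 225 TPM, and Sec61a1 had 71.8 and 98.3 TPM, against 89.5 and 88.0 TPM. Among the sensing genes Xbp1 had 129.6 and 139 TPM with LPS, against 145 and 149 TPM with saline, and Atf6 had 12.7 and 10.8 TPM, against 15.3 and 13.6 TPM. Ern1 had 8.49 and 8.36 TPM, against 7.08 and 6.50 TPM, and Eif2ak3 had 9.55 and 13.2 TPM, against 11.5 and 10.4 TPM. No sensing gene passed in either fit.

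Markers of other cell types also differed with LPS. Of the 6 progenitor and fibroblast markers tested 3 rose (limma, all 10 libraries), among them Dcn, the proteoglycan decorin, with 1184 and 682 TPM with LPS, against 173 and 128 TPM with saline. The others that rose were Pdgfra and Pi16, and 0 of the 6 fell. Col1a1 had 4994 and 4874 TPM with LPS, against 5697 and 5122 TPM with saline, and Col3a1 had 3003 and 2909 TPM, against 3466 and 2887 TPM. The sum of the 7 markers listed overlapped, with 9486 to 10208 TPM with LPS and 8761 to 9941 TPM with saline. Of the 6 smooth muscle and pericyte markers 2 fell, Myh11 and Cspg4. Over all tested genes 2.87% rose and 0.932% fell. The 7 adipocyte markers tested had a median log2 fold change of -1.03 and 0 passed, and Adipoq had 379 and 549 TPM with LPS, against 925 and 1062 TPM with saline. The part of these differences in the LPS values of the ER genes was not tested.

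LPS and norepinephrine were also set directly against each other, a comparison whose fold changes do not use saline. The saline libraries still enter the shared error estimate. With the compared libraries alone 0 of the 36 genes passed, where 628 of the 14166 tested genes did. Both LPS libraries lay above both norepinephrine libraries for 25 of the 36 genes, where 22% of all tested genes did, and below for 5, where 32.8% did. The median log2 fold change of LPS minus norepinephrine was 0.38, against -0.04 over all genes, and it was 0.23 without LPS replicate 2. The adipocyte marker sum was 4731 to 5347 TPM with LPS, against 13269 to 13828 TPM with norepinephrine, and its part in this comparison was not tested. In limma with all 10 libraries 3 genes were higher with LPS, Sdf2l1, Manf and Sec61b, and none lower, where 7.81% of all genes passed, 3.62% higher and 4.19% lower. Without the libraries labelled APRIL 13 were higher and 1 lower, where 16% of the genes then tested passed, 5.84% higher and 10.1% lower. The 13 were 6 chaperone genes (Hspa5, Hyou1, Calr, Dnajb11, Sdf2l1 and Manf), 4 disulfide genes (Pdia3, Pdia4, Pdia6 and Creld2), the sensor Eif2ak3 and the translocation genes Sec61b and Ostc. The 1 lower was Xbp1, and 0 of the 9 degradation factors passed.

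Sdf2l1 had 36.8 and 45.2 TPM with LPS, against 13.9 and 19.3 TPM with norepinephrine (log2 fold change 1.27 ± 0.23, adjusted p = 0.0185 with and 0.00706 without the libraries labelled APRIL). Manf had 240.1 and 323 TPM with LPS, against 119 and 149 TPM with norepinephrine (1.06 ± 0.23, adjusted p = 0.0351 and 0.00824 in the same fits). Sec61b had 219.5 and 234 TPM with LPS, against 140.3 and 156 TPM with norepinephrine (0.61 ± 0.11, adjusted p = 0.0181 and 0.00728). The LPS libraries were higher in all 3 genes without overlap. Derl3 and Herpud1 did not separate the treatments: Derl3 had 6.02 and 5.81 TPM with LPS, against 7.40 and 6.55 TPM with norepinephrine (adjusted p = 0.523), and Herpud1 had 36.9 and 59.4 TPM, against 43.4 and 51.2 TPM (adjusted p = 0.994). Leaving out any 1 of the 4 compared libraries leaves 1 library in its group, and far fewer of all tested genes then passed. Manf and Sec61b no longer passed, and Sdf2l1 did so only without norepinephrine replicate 2. The log2 fold changes in these fits were 0.85 to 1.28 for Manf, 0.54 to 0.69 for Sec61b and 1.04 to 1.49 for Sdf2l1.

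BAFF gave no member past the threshold. In limma 0 of the 36 genes passed in either direction with all 10 libraries or without those labelled APRIL, 0 had an unadjusted p below 0.05 with all 10, and the smallest adjusted p were 0.996 and 0.850. Over all tested genes 0.0141% passed with all 10 libraries, every one of them lower, and 0.0146% without those labelled APRIL, again lower. Over all genes 336 were higher and 67 lower at an unadjusted p below 0.05. Both BAFF libraries lay above both saline libraries for 13 of the 36 genes, where 40.4% of all genes did, and below for 1, where 3.76% did. The 36 log2 fold changes lay between -0.08 (Dnajb9) and 0.25 (Syvn1), with a median of 0.08, against 0.11 over all genes, and of 0.04 without BAFF replicate 1 or saline replicate 2 and 0.14 without BAFF replicate 2. Scaling the libraries to a common median ratio moved the median over all genes to -0.01 and that over the 36 genes to -0.05, so the slight positive sign depends on the scaling. Hspa5 had 1089 and 1031 TPM with BAFF, against 1070.2 and 1002 TPM with saline. Derl3 had 29.1 and 27.9 TPM with BAFF, against 33.0 and 22.7 TPM with saline. Xbp1 had 156 and 158 TPM with BAFF, against 145 and 149 TPM with saline. The log2 fold changes of these 3 genes were 0.03, 0.05 and 0.09, and the 2 BAFF libraries were close to each other, with a median gap between replicates of 0.09 over the 36 genes.

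In the libraries labelled APRIL 7 of the 36 genes rose and 12 fell relative to saline (limma, all 10 libraries), where 58.1% of all tested genes passed, 33.1% rising and 25% falling. The share of members that passed is thus no higher than that of all genes. Both libraries lay above both saline libraries for 13 members, where 42.5% of all genes did, and below for 14, where 35.2% did. Median-ratio scaling moved the median over all genes by 0.10, to -0.02, and gave 7 higher and 13 lower members. Of the 4 sensing genes 3 rose: Ern1 had 21.4 and 40.8 TPM in the libraries labelled APRIL, against 7.08 and 6.50 TPM with saline (log2 fold change 1.98 ± 0.25, adjusted p = 3.87e-04). Eif2ak3 had 18.8 and 22.9 TPM, against 11.5 and 10.4 TPM with saline, and Atf6 had 24.4 and 26.6 TPM, against 15.3 and 13.6 TPM. The libraries labelled APRIL held the highest values of the series for all 3 sensors. Of the 5 translocation genes 4 fell: Sec61b had 122 and 107 TPM in the libraries labelled APRIL, against 230.1 and 225 TPM with saline (-0.99 ± 0.11, adjusted p = 1.80e-04), and Sec11c, Ssr1 and Ostc had log2 fold changes of -0.92, -0.66 and -0.95. Sec11c had 39.5 and 41.0 TPM in the libraries labelled APRIL, against 88.2 and 67.1 TPM with saline, Ssr1 had 23.1 and 24.3 TPM, against 36.6 and 39.6 TPM, and Ostc had 59.9 and 72.4 TPM, against 120.4 and 136 TPM.

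Among the chaperones in the libraries labelled APRIL, Calr, Sdf2l1 and Sdf2 fell and Dnajb9 rose. Calr had 547 and 804 TPM, against 1297 and 1242 TPM with saline, and Dnajb9 had 73.2 and 62.9 TPM, against 52.9 and 49.5 TPM. Sdf2l1 had 33.6 and 49.8 TPM in the libraries labelled APRIL, against 79.0 and 66.0 TPM with saline, and Sdf2 had 62.3 and 57.4 TPM, against 77.0 and 80.3 TPM. Among the disulfide genes P4hb, Pdia3 and Txndc5 fell and Txndc11 rose. Txndc5 had 71.1 and 76.3 TPM in the libraries labelled APRIL, against 191 and 192 TPM with saline, the smallest adjusted p of the 36 (5.27e-05), and Txndc11 had 33.4 and 47.7 TPM, against 19.9 and 23.4 TPM. P4hb had 661 and 859.8 TPM in the libraries labelled APRIL, against 1370.2 and 1224 TPM with saline, and Pdia3 had 412 and 574 TPM, against 738 and 716 TPM. Among the degradation factors Derl3 and Os9 fell and Syvn1 and Edem2 rose. Derl3 had 16.1 and 13.8 TPM in the libraries labelled APRIL, against 33.0 and 22.7 TPM with saline, Os9 had 41.4 and 41.5 TPM, against 62.5 and 54.8 TPM, and Edem2 had 33.5 and 40.7 TPM, against 21.6 and 19.3 TPM. Syvn1 had 38.1 and 56.5 TPM in the libraries labelled APRIL, against 27.7 and 25.9 TPM with saline. The groups did not overlap for any of the genes named here. Of the 19 calls in these libraries, 13 passed under each of the 12 alternatives tried. Markers of several cell types also differed in this group. Of those tested, 4 of 6 progenitor and fibroblast, 6 of 6 smooth muscle and pericyte, 3 of 4 endothelial and 4 of 7 adipocyte markers fell. Over all genes 25% fell. In the adipocyte list 1 rose, and 0 of 7 macrophage markers passed. The 7 listed progenitor and fibroblast markers, none at 0, summed to 1859 to 2299 TPM in this group, against 8761 to 9941 TPM with saline. Most of that sum was Col1a1 and Col3a1. The part of these and of the Y-linked difference in the calls was not tested.

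Within the APRIL group the ER genes were wider apart than all genes were at the median. The median absolute gap between the replicates was 0.37 on the log2 scale over the 36 genes and 0.26 over all tested genes, and 29 of the 36 genes were higher in replicate 2, where 41.2% of all genes were. In the other 4 groups the median gap over the 36 genes was 0.09 to 0.21. Hspa5 had 1250.5 and 2790.5 TPM in the 2 libraries labelled APRIL, against 1070.2 and 1002 TPM with saline. Herpud1 had 136 and 352 TPM, against 111 and 105 TPM with saline, and Hsp90b1 had 1424 and 2779 TPM, against 2389 and 2183 TPM. Creld2 and Pdia4, named here for their gap, had 70.1 and 216 TPM and 135 and 293 TPM in the libraries labelled APRIL. Replicate 2 was far above saline for Hspa5, Herpud1 and Creld2 and replicate 1 nearer to it, and none of the 5 genes passed against saline. With both libraries the median log2 fold change against saline was -0.01 over the 36 genes and 0.08 over all genes. Leaving out APRIL replicate 1 gave 0.17 over the 36 genes and 0.02 over all genes. Leaving out APRIL replicate 2 gave -0.23 and 0.14. These gaps enter the shared error estimate of the fit of all 10 libraries, and the SE of the Hspa5 fold changes was 0.33 with and 0.16 without the libraries labelled APRIL.

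**Figure D3:**
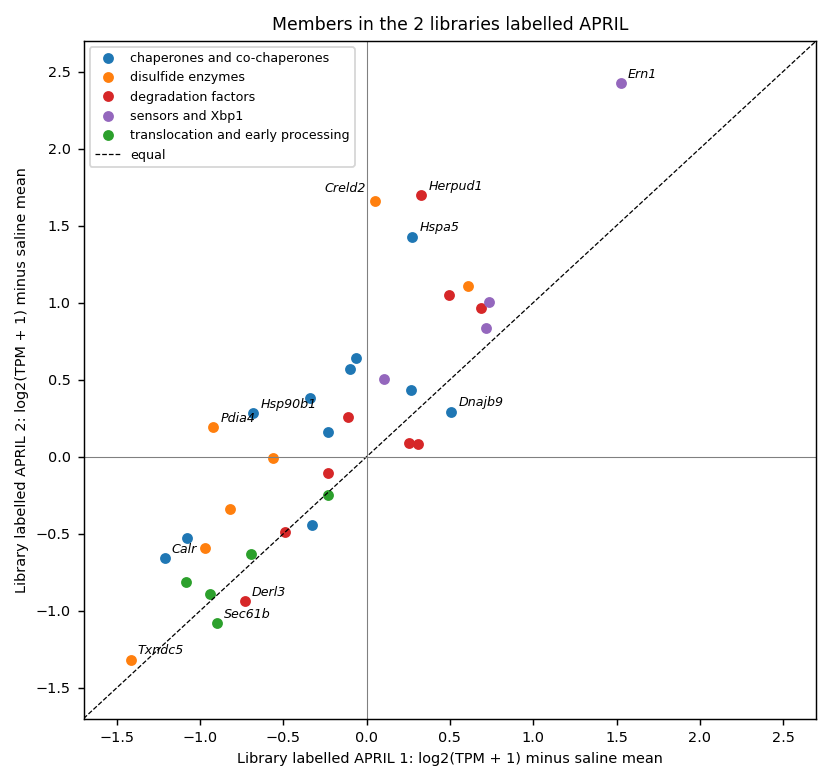
Each of the 36 genes as log2(TPM + 1) minus the saline mean in the library labelled APRIL replicate 1 (horizontal) and replicate 2 (vertical), coloured by role, with the dashed line of equal values. Ern1 is high in both, Txndc5, Sec61b and Derl3 are low in both, and Hspa5, Herpud1 and Creld2 lie far above the line.

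The wider pathway was read from 70 other genes of the ER, all tested: 20 of translocation and glycosylation, 22 of folding and disulfide chemistry, 19 of degradation and 9 of sensing and regulation. In limma with all 10 libraries 0 of the 70 passed with LPS, norepinephrine or BAFF against saline, and 20 rose and 29 fell in the libraries labelled APRIL, where 33.1% of all genes rose and 25% fell. Without the libraries labelled APRIL 6 of the 70 fell with norepinephrine (Rpn1, Spcs2, Spcs3, Serp1, Selenos and Creb3l1) and 1 rose (Qsox1), where 1.18% of all genes fell and 5.04% rose, and with LPS 0 fell and 1 rose (Qsox1). Rpn1, a subunit of the N-glycan transferase, had 52.7 and 58.3 TPM with norepinephrine, against 85.1 and 86.9 TPM with saline. Serp1, a translocon-associated stress protein, had 70.4 and 70.7 TPM with norepinephrine, against 120.9 and 126.8 TPM with saline. Set against each other, LPS exceeded norepinephrine in 4 of the 70 (Ssr2, Spcs3, Rpn1 and Creb3l1) with all 10 libraries, where 3.62% of all genes were higher. In the fit that left out the libraries labelled APRIL 8 of the 70 were higher with LPS, where 5.84% of all genes were, the added ones being Erp29, Erp44, Fkbp10 and Serp1, and 0 were lower. The median log2 fold change of the 70 genes with norepinephrine was -0.17, against -0.52 for the 36 members and 0.04 for all genes.

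A list of 10 genes of the integrated stress response, the arm downstream of PERK and other kinases of eIF2, showed falls under both LPS and norepinephrine. With norepinephrine 2 of the 10 fell and none rose (limma, all 10 libraries), where 0.0847% of all genes fell. Ddit3 (CHOP), a transcription factor of prolonged stress, had 44.1 and 43.3 TPM with norepinephrine, against 134 and 112 TPM with saline (adjusted p = 0.0204). Trib3, a pseudokinase and target of the same pathway, had 12.9 and 13.8 TPM with norepinephrine, against 36.2 and 40.7 TPM with saline (adjusted p = 0.0280). Without the libraries labelled APRIL Atf4 and Chac1 also fell with norepinephrine. With LPS 3 of the 10 fell (Ddit3, Trib3 and the asparagine synthetase gene Asns), where 0.932% of all genes fell, and without the libraries labelled APRIL 4 fell, Atf4 being added, where 2.34% did. With BAFF 0 passed in either fit. In the libraries labelled APRIL 5 rose and 0 fell, where 33.1% of all genes rose and 25% fell. Ddit3 had 773 and 837 TPM in the libraries labelled APRIL, against 134 and 112 TPM with saline, and Ppp1r15a, which reverses the translational block, had 263 and 346 TPM, against 35.1 and 25.9 TPM.

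The promoters of all members with a sequence on hand, whatever their change, were searched for the sequence elements through which ATF6 and XBP1 are known to act. RefSeq windows of GRCm38.p6, from 250 bases before to 50 bases after the transcription start, were on hand for 29 of the 36 genes. The ER stress response element (ERSE, searched on both strands as CCAAT, any 9 bases and CCACG) was in 9 of the 29 genes, where 0.1187% of all 32851 windows held it. The related ERSE-II (ATTGG, any 1 base and CCACG, both strands) was in 2 of the 29, Dnajb11 and Herpud1, and in 0.0365% of all windows. The core of the unfolded protein response element (TGACGTGG, both strands) was in Txndc5 and Txndc11, and in 0.6758% of all windows. The cAMP response element TGACGTCA, in 1.7899% of windows, and the amino acid response element TGATGCAAT, in 0.1918%, were in none of the 29. No match overlapped another. These elements were known from studies of several of the same genes, so their presence in this list is background and not a result of the present measurements, and a match is a stretch of letters and not a shown binding site.

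The letters that the matches share were fixed by the search, so their likeness is not a result. The matches are printed to show the bases between and beside those letters. Each is given 5′ to 3′ on the strand of its gene with the element in capitals and 10 flanking bases on each side in lower case. Those of Calr, Creld2, Derl3 and the second of Hsp90b1 are on the opposite strand, so the capitals there read as the reverse complement.
Hspa5: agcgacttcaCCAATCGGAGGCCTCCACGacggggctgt
Hsp90b1, first: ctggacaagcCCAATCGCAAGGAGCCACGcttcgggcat
Hsp90b1, second: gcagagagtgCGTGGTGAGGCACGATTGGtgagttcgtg
Calr: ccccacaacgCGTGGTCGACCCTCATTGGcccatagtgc
Canx: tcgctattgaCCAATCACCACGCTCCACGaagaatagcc
Dnajc3: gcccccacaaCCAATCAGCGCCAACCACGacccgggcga
Pdia6: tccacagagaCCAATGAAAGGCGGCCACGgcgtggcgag
Creld2: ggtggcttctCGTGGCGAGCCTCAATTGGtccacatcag
Derl3: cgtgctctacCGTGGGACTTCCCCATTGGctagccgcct
Syvn1: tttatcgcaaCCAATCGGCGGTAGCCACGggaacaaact
Herpud1 (ERSE-II): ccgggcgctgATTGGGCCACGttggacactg
Dnajb11 (ERSE-II): ATTGGCCCACG
The matches of Hspa5 and Herpud1 lay close to the start, at -65 to -47 and -52 to -42 from it, that of Derl3 lay at -156 to -138, and that of Dnajb11 lay after it, at 8 to 18, and is printed without flanks.

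The whole windows of the chaperone gene Hspa5 and of Derl3 are printed as examples. Hspa5 was lower with norepinephrine than with LPS, and Derl3 was low with both. Hspa5 also lay below saline with LPS without overlap (log2 fold change -0.74). The Hspa5 window is chr2:34771840-34772139 and the Derl3 window chr10:75893148-75893447, both GRCm38.p6, plus strand and from RefSeq, with the ERSE in capitals.
Hspa5: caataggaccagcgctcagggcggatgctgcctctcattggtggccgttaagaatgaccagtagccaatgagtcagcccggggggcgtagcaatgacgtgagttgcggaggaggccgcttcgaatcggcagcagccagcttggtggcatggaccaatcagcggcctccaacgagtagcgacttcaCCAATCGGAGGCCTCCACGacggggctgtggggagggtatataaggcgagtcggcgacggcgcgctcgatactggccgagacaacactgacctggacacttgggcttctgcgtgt
Derl3: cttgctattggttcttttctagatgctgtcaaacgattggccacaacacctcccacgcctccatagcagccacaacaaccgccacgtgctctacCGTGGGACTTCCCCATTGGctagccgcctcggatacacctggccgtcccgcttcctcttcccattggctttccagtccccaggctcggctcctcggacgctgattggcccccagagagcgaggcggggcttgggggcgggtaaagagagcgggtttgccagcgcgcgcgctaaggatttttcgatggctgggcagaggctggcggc
Both hold a single exact match to the searched element. Looser matches were not searched.

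With norepinephrine the 11 genes with an ERSE or ERSE-II had log2 fold changes against saline between -1.84 (Derl3) and -0.34 (Canx), with a median of -0.84, and for all 11 both norepinephrine libraries lay below both saline libraries. The 18 genes with a window but neither element had a median of -0.29, with 11 below saline and 1 above without overlap. The 7 genes with no window in the table (Atf6, Ostc, Manf, Sec11c, Derl1, Sec61a1 and Hyou1) had a median of -0.54, with 7 below. Of all 36 members 29 lay below saline without overlap with norepinephrine. Over all tested genes 22.9% lay below and 34% above. With LPS the medians of the 3 sets were -0.13, -0.03 and -0.21, and 5 of the 11 genes with an element lay below saline without overlap. For LPS, 15 of all 36 members did so, and 25.5% of all tested genes. Sdf2l1, the member with the lowest fold change under norepinephrine, held neither element in its window.

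**Figure D4:**
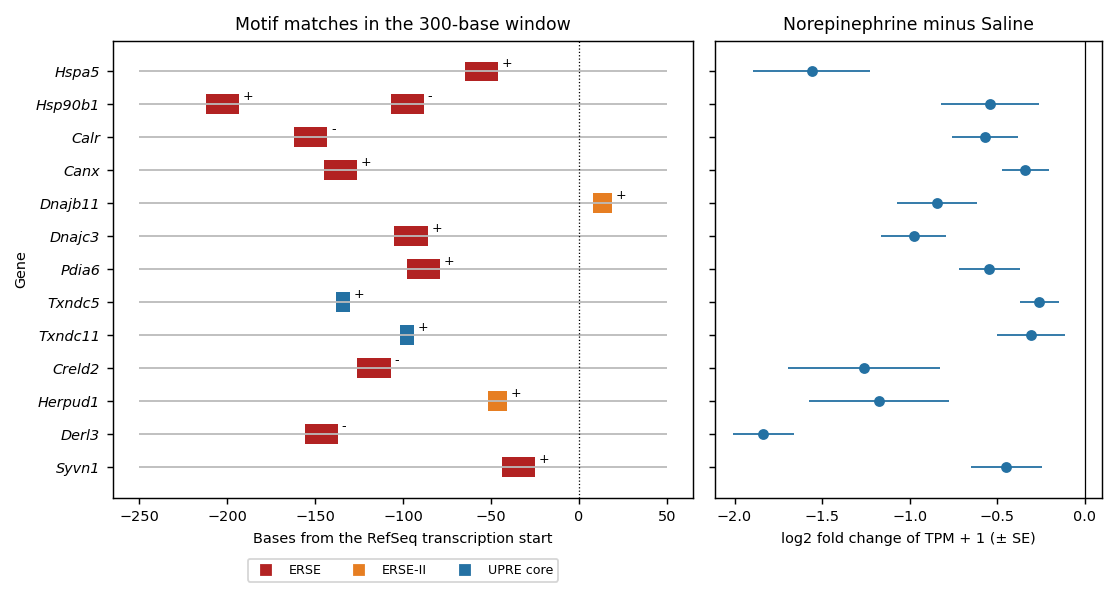
Left, position of each match (bars; ERSE, ERSE-II and the core of the unfolded protein response element, UPRE core, in colour, with the strand as + or -) in bases from the RefSeq transcription start for the 13 genes with a match; right, the log2 fold change of TPM + 1 for norepinephrine minus saline (± SE) of the same genes. All 11 genes with an ERSE or ERSE-II lie left of 0, from -1.84 for Derl3 to -0.34 for Canx.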

How the data were processed

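Each deposited file lists 28987 Ensembl gene IDs with TPM values, per the file headers. The submitters' processing notes name kallisto and the mm10 genome. The kallisto version, the annotation release, how transcripts were summed to genes, strand settings and filters are not given in the sources used here, and neither are counts. No counting interval can thus be stated, and errors come from the replicates alone. GENCODE mouse M21 named 27475 of the 28987 IDs and all 36 members.

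A gene entered the test when 2 or more libraries reached 1 TPM (14166 genes). Limma 3.58.1 (R 4.3.3) was run on log2(TPM + 1) with the variance trend on, as 1 fit of 5 group means over all 10 libraries and 5 residual degrees of freedom. P-values are two-sided and Benjamini-Hochberg adjusted over all tested genes within each of 5 comparisons, at a threshold of 0.05. The script was tested on simulated data. Members and lists were chosen with earlier results of these data known. All 36 members are named by rule, with the value in each compared library for those past the threshold in a comparison with all 10 libraries. Values in every library were planned for 13 leading members and are given only in part. Of other lists, up to 4 genes past the threshold per comparison are named, by smallest p. The values of Creld2 and Pdia4 and the genes that passed only without the libraries labelled APRIL were named after their values were seen. So were Col1a1, Col3a1 and the members listed as below saline with LPS that did not pass. Alternatives were other filters (none, 5 TPM), pseudocounts of 0.1 and 0.5, the compared libraries alone, the libraries labelled APRIL left out, a replicate block, scaling to a median ratio, leaving out mitochondrially encoded genes, and leaving out each library; the block and single libraries left out together with the libraries labelled APRIL were added after seeing the data.

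Copies at 97% identity over 200 bases or more were searched with BLAST 2.17.0 in the GENCODE M21 transcripts. Sec61b has a copy, Gm10320, with 98.3% identity over 474 bases and at most 0.499 TPM. In Derl2, Manf, Sdf2, Syvn1, Txndc11, Txndc5, Pdia3 and Pdia6, part of an exon overlaps a listed gene on the opposite strand. Because the counting of strand is not stated, reads from those shared bases cannot be assigned to either gene. The highest level of these partners ranged from 0.691 TPM (Atp6v1c2, at Pdia6) to 80.2 TPM (Dcaf1, at Manf). Hsp90b1, Sec61a1, Eif2ak3 and Dnajb9 overlap opposite-strand genes that are not among the listed IDs. Hsp90b1 and Manf share exon bases with another gene on the same strand. Plots came from matplotlib 3.10.9 (Python 3.11.15).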

Additional observations from a re-analysis of the deposited data

How the results depend on the processing

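No member changed direction among the calls under any alternative tried. Of the 36 members, 1 passed for LPS against saline; the count was 2 with a filter at 5 TPM, 2 with mitochondrially encoded genes left out, 5 without the libraries labelled APRIL, 1 to 1 with single libraries left out and 1 to 5 with both left out. For norepinephrine against saline the count of 2 became 1 with no filter, 4 with the compared libraries alone, 4 with median-ratio scaling, 16 without the libraries labelled APRIL, 0 to 1 with single libraries left out and 1 to 7 with both left out. For LPS against norepinephrine the count of 3 became 1, 0, 7 and 14 under the same settings and 0 to 1 with single libraries left out. Without the libraries labelled APRIL, leaving out LPS replicate 1, LPS replicate 2, norepinephrine replicate 1 or norepinephrine replicate 2 gave 19, 8, 4 and 11. For BAFF it was 0 throughout, and for the libraries labelled APRIL it was 19, and 15 to 24 with single libraries left out. Over all genes 539 passed for LPS. The 5 TPM filter, mitochondrially encoded genes left out and the libraries labelled APRIL left out gave 544, 528 and 946. For norepinephrine 99 of all genes passed, and 80, 121, 141 and 854 under its settings in the order above. For LPS against norepinephrine 1107 passed, and 550, 628, 1298 and 2192 in that order. Where a library was left out, the lone sample is assumed to vary like the other groups. Member counts could then move either way, and in every comparison but BAFF fewer of all genes passed. For other drops the cause was not tested.

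The replicate numbers may mark pairs. The deviations of replicate 1 correlated at 0.272 to 0.479 between each pair of the 4 groups not labelled APRIL and at -0.108 to 0.0264 with the libraries labelled APRIL. The labels give no shared source for a number, and each comparison has 2 pairs, so this is a hint from the data and not the design. The macrophage gene Lyz2 was higher in replicate 1 and the skeletal muscle gene Myl1 in replicate 2 of each of these 4 groups. With a replicate block the counts were 1 for LPS, 4 for norepinephrine, 0 for BAFF, 22 for the libraries labelled APRIL and 6 for LPS against norepinephrine. Of all 14166 tested genes 683, 167, 2, 8531 and 1306 passed in these fits. With the block and without the libraries labelled APRIL the member counts were 6 for LPS, 21 for norepinephrine, 0 for BAFF and 17 for LPS against norepinephrine. Of the 13730 genes then tested 1705, 1740, 2 and 3188 passed. TPM without counts limits what can be said of members at low levels such as Ern1, Eif2ak3 and Derl3.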

Other observations

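Across all windows of the RefSeq table, 49 gene symbols held an ERSE or ERSE-II match, 11 of them members and 38 not. Of the 38 others, 15 were tested. With norepinephrine 5 of these 15 lay below both saline libraries, 5 lay above and 5 overlapped, where all 11 members lay below. Over all tested genes 22.9% lay below and 34% above. With LPS 4 of the 15 lay below and 2 above, where 25.5% and 24.2% of all genes did, and 5 of the 11 members lay below and 0 above. Among the 15, Alg12, a mannosyltransferase of N-glycan assembly, averaged 7.07 TPM with LPS, 6.13 TPM with norepinephrine and 10.1 TPM with saline, and Acacb, an acetyl-CoA carboxylase, averaged 9.65 TPM with LPS, 34.5 TPM with norepinephrine and 8.77 TPM with saline. These genes were named after their values were seen.

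Skeletal muscle markers (Acta1, Myh4, Ckm, Myl1 and Mb) differed within groups. The sum of these 5 genes ranged from 4.84 to 59.8 TPM within LPS, from 11.4 to 109 TPM within norepinephrine, from 13.1 to 59.8 TPM within BAFF, from 19.1 to 81.7 TPM within the libraries labelled APRIL and from 11.6 to 74.7 TPM within saline. Myl1 was higher in replicate 2 of LPS, norepinephrine, BAFF and saline and in replicate 1 of the libraries labelled APRIL. Macrophage markers were unequal too: Lyz2 had 1192 and 304 TPM in LPS replicates 1 and 2, 1029.96 and 219 TPM in those of norepinephrine, 841 and 359 TPM in those of BAFF, 374 and 229 TPM in those labelled APRIL and 1018 and 312 TPM in those of saline. The part of these gaps in the results was not tested.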
